A study of Arabidopsis thaliana with 12 samples.

Results

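The genes described here are 10 Arabidopsis genes known for mRNAs that accumulate in response to salicylate: *PR1* (AT2G14610), *PR2* (AT3G57260), *PR5* (AT1G75040), *PNP-A* (AT2G18660), *AED1* (AT5G10760), *LURP1* (AT2G14560), *DMR6* (AT5G24530), *CYP71B23* (AT3G26210), *ICS1* (AT1G74710) and *EDS5* (AT4G39030). They were found in the deposited array table by gene name or locus. Each of the 10 has 1 probe set, out of 22746 probe sets for genes in all. Several of them had been chosen by their polysomal signals, which were higher in the *eif3k* mutant than in WT. Differences between the genotypes in polysomal mRNA are therefore given as a description, without a test, and so are those in the other measures, which come from the same lysates. No salicylate was applied in these samples and none was measured, so the name of the group rests on background knowledge.

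Salicylate is a plant hormone of defence against biotrophic pathogens. It is made in the chloroplast through isochorismate, exported to the cytosol, and sensed there by NPR proteins, which act with TGA transcription factors on a large set of target genes. Many of the targets code for proteins that are secreted into the cell wall space, and others remove salicylate again. In leaves of unchallenged seedlings such mRNAs are usually scarce.

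The seedlings were *Arabidopsis thaliana*, ecotype Columbia, either *eif3k* or wild-type (WT), 11 days old, and aerial tissue was used. The *eif3k* plants carried a T-DNA insertion in intron 6 of *eIF3k*. The gene codes for one of the subunits of initiation factor eIF3 that lie outside its core. They were a single insertion line, with a transcript truncated at its 3′ end. Lysates were run on sucrose gradients. The lower 6 fractions made up the polysomal pool (PL) and the upper 6 the non-polysomal pool (NP), and each pool went to 1 Affymetrix ATH1 array, in 3 replicates of each genotype and fraction (12 arrays). The design asks how loss of eIF3k alters the ribosome loading of mRNAs. The difference log2 PL minus log2 NP of the same replicate is the translation state (TL). Since PL and NP arrays were normalized together, a TL of 0 marks the array average and not an mRNA present in equal amounts in both pools.

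The median log2 signal of an array was 3.25 to 3.49, and the lowest signal, 2.33, acted as a floor. The signal of *eIF3k* itself was 7.17, 7.06 and 7.63 in *eif3k* PL, against 8.61, 8.89 and 7.28 in WT PL, and 7.30, 7.93 and 8.05 in *eif3k* NP, against 9.26, 9.45 and 9.01 in WT NP. Only the NP signals were lower in all *eif3k* samples, and where the probes lie relative to the insertion is not known here. WT replicate 3 stood apart. Its TL correlated with that of the other 5 samples at r between 0.297 and 0.362 across probe sets, against 0.741 to 0.896 among those 5, and its PL array had the narrowest spread of log2 signals (SD 1.94, against 2.15 to 2.29 on the other 11 arrays). The difference between the 3′ and 5′ control probe sets of GAPDH, a sign of RNA quality, was 8.98 on that array, against 5.56 to 7.97 on the other 11. Its part in the results was not tested. Per the labels, the array data of replicate 3 of both genotypes were also generated on another day than those of replicates 1 and 2. Values below are therefore given with and without these samples where it matters. The 6 shoot markers were bright on all arrays, with a log2 summed level of 16.10 to 16.39 in *eif3k* PL and 15.47 to 16.37 in WT PL. Of 8 root markers, 3 were at the floor on every array (*EXPA7*, *COBL9* and *PIN2*). The log2 summed level of the 8 was 9.73 to 10.42 in *eif3k* PL, against 7.78 to 9.35 in WT PL, and 8.22 to 8.29 in *eif3k* NP, against 7.69 to 8.84 in WT NP. It was carried by *PYK10*, a glucosidase gene best known from roots, with a PL difference of 1.43, and its part in the differences below was not tested. The other root markers with a PL difference were lower in *eif3k*, by values of -0.54 (*EXPA18*), -0.19 (*SHR*), -0.15 (*IRT1*) and -0.13 (*NRT2.1*). For *EXPA18* and *IRT1* the difference came from WT PL replicate 3 alone, at 3.96 and 2.78. For *NRT2.1* it came from WT PL replicate 2 alone, at 2.72. On their other PL arrays *EXPA18*, *IRT1* and *NRT2.1* were at 2.33 to 2.34. In bulk tissue, fewer cells with an mRNA and less of that mRNA per cell cannot be told apart.

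The 10 probe sets gave low signals. Only *PR5* and *DMR6* reached a mean log2 signal of 4 over the 12 arrays, a level that 43.1% of all probe sets reached. The log2 signals of *ICS1* and *EDS5* were within 0.15 of the gene's lowest on 11 of 12 arrays, those of *AED1* and *CYP71B23* on 9 and those of *LURP1* on 8. Those of *PR1* were so on 7 arrays, 4 of them WT. On all 6 WT arrays, PL and NP alike, *ICS1*, *LURP1*, *AED1* and *CYP71B23* stayed at that lowest level. For these genes a signal in WT is a bound set by background and not a level, and a fold difference may understate what separates the genotypes.

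**Figure D1:**
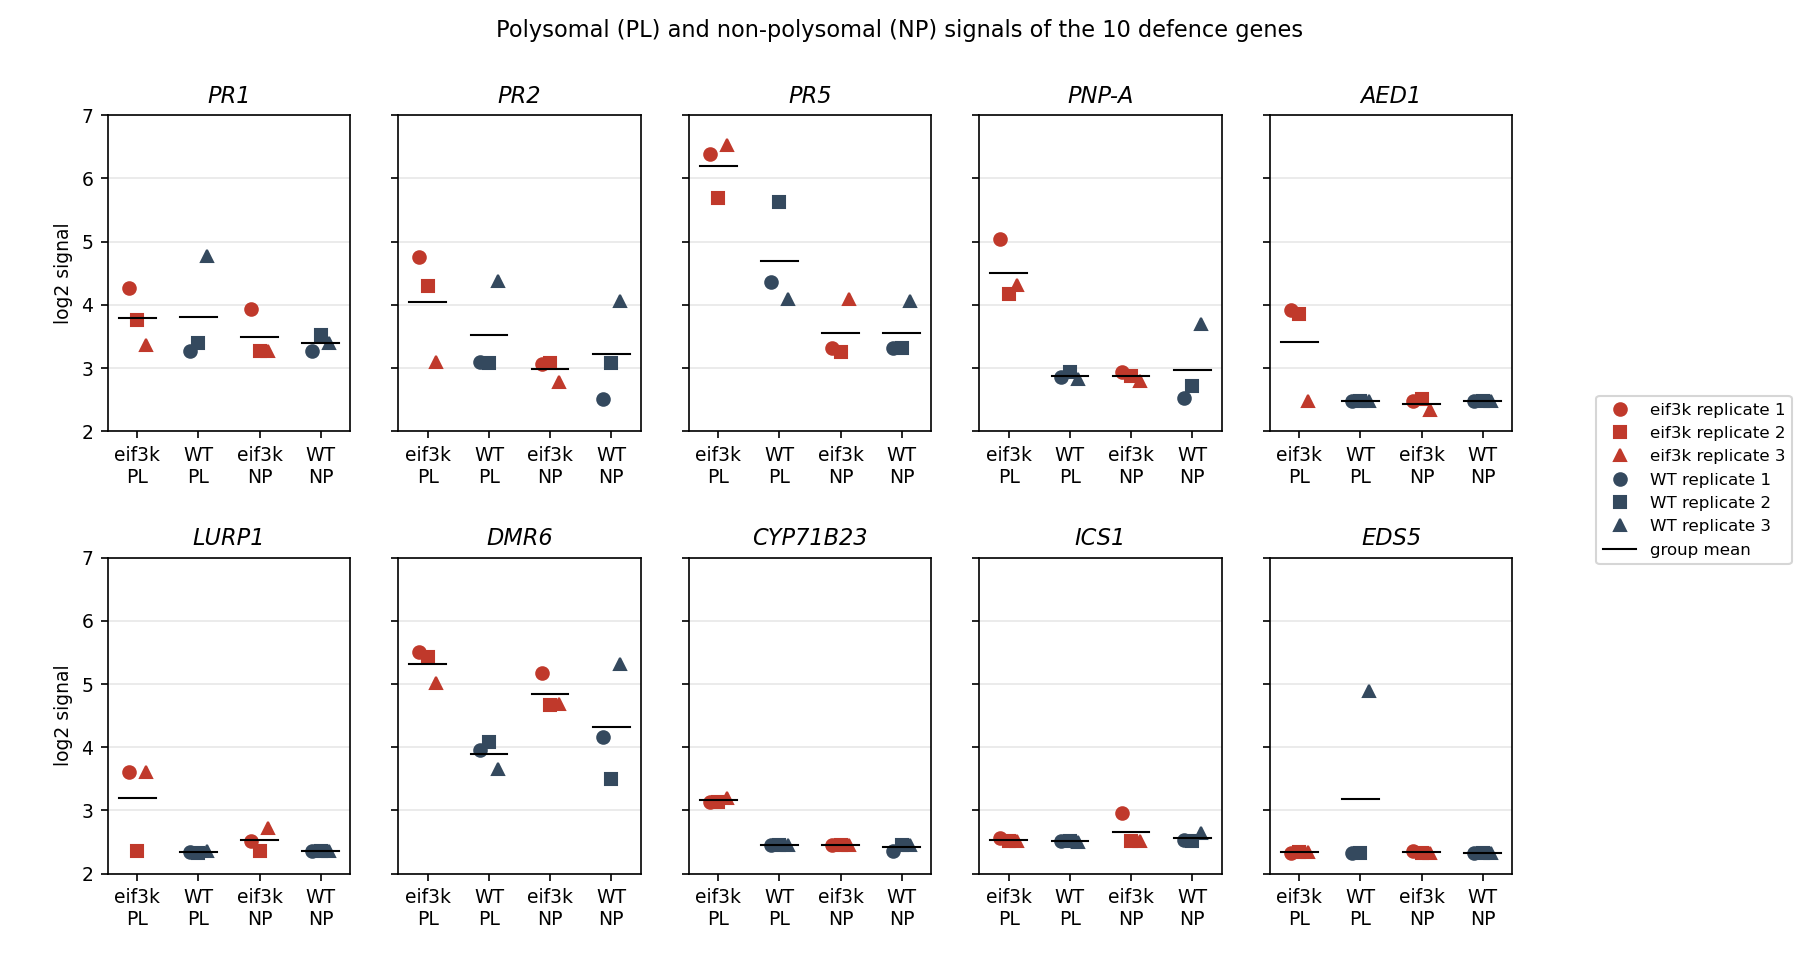
Log2 signals of the 10 genes (vertical axis) in *eif3k* (red) and WT (dark blue), polysomal (PL) and non-polysomal (NP), with 1 symbol for each of the 3 replicates and a line for the group mean. The 3 *eif3k* PL values of *PR5*, *PNP-A*, *DMR6* and *CYP71B23* lie above all WT PL values, while WT replicate 3 is the highest PL value of *PR1* (4.78) and *EDS5* (4.89).

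The pathogenesis-related genes *PR1*, *PR2* and *PR5* code for small secreted proteins and are the usual markers of salicylate signalling. They did not share one pattern. *PR5*, whose product is a thaumatin-like protein, had log2 PL signals of 6.39, 5.69 and 6.53 in *eif3k*, against 4.36, 5.63 and 4.09 in WT. All 3 *eif3k* values were above all WT values, but the WT replicate 2 value came within 0.06 of *eif3k* replicate 2. The group means were 6.20 ± 0.45 in *eif3k* and 4.69 ± 0.82 in WT (SD, n = 3), a log2 difference of 1.51 or 2.85-fold. In NP the log2 signals of *PR5* were 3.31, 3.25 and 4.09 in *eif3k* and 3.31, 3.31 and 4.06 in WT, with a difference of -0.01. The NP values of replicates 1 and 2 lay within 0.06 of the lowest *PR5* signal on any array, so likeness in NP may be set by background, and in PL replicate 2 the genotypes differed by only 0.06. The PL difference was 1.21 without WT replicate 3, and 1.04 without replicate 3 of both genotypes.

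*PR2*, a glucanase of the cell wall space, had log2 PL signals of 4.75, 4.30 and 3.09 in *eif3k*, against 3.09, 3.08 and 4.38 in WT. The genotypes overlapped, since the order of replicate 3 was opposite to that of replicates 1 and 2. The difference of the means was 0.53 with all samples, 0.96 without WT replicate 3 and 1.44 in replicates 1 and 2 alone. In NP, *PR2* had 3.07, 3.08 and 2.78 in *eif3k*, against 2.51, 3.08 and 4.06 in WT, and here too WT replicate 3 was the highest.

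*PR1*, the gene most often used as a reporter of salicylate, showed the same split. Its log2 PL signals were 4.26, 3.76 and 3.37 in *eif3k*, against 3.27, 3.39 and 4.78 in WT. The means were nearly equal, 3.80 ± 0.45 in *eif3k* and 3.81 ± 0.84 in WT (SD, n = 3). In replicates 1 and 2 the *eif3k* values were above both WT values, with a difference of 0.68, whereas the replicate 3 pair differed by -1.41. The direction for *PR1* therefore depends on replicate 3. Its NP signals lay between 3.27 and 3.93 in *eif3k* and between 3.27 and 3.53 in WT. The lowest *PR1* signal on any array was 3.27, so several of these values may be set by background.

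*PNP-A* and *AED1* also code for proteins of the cell wall space, a natriuretic peptide related to expansins and a protein similar to aspartyl proteases. *PNP-A* had log2 PL signals of 5.04, 4.17 and 4.32 in *eif3k*, against 2.85, 2.93 and 2.83 in WT. No WT value came near an *eif3k* value, and the WT values were tightly grouped. The means were 4.51 ± 0.47 in *eif3k* and 2.87 ± 0.05 in WT (SD, n = 3), a log2 difference of 1.64 or 3.12-fold, the highest PL difference of the 10 genes. It was 1.62 without WT replicate 3. The NP signals of *PNP-A* were 2.93, 2.88 and 2.80 in *eif3k* and 2.52, 2.71 and 3.69 in WT, a difference of -0.10. WT replicate 3 was again the highest, and without it the *eif3k* NP values were above those of WT by 0.25.

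The *AED1* signal was at 2.47 on every WT array, in both fractions. In *eif3k* PL it was 3.91, 3.85 and 2.47, and in *eif3k* NP 2.47, 2.51 and 2.33. Polysomal signal of *AED1* was thus seen above its background level in *eif3k* replicates 1 and 2, while replicate 3 was at the WT level. The difference in PL was 0.94 over all samples and 1.41 in replicates 1 and 2.

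Inside the cell, DMR6 is an oxygenase that hydroxylates salicylate and so lowers its level, LURP1 is required for resistance to a downy mildew, and CYP71B23 is a cytochrome P450. *DMR6* had log2 PL signals of 5.51, 5.42 and 5.01 in *eif3k*, against 3.96, 4.09 and 3.65 in WT. The genotypes did not overlap, and the 3 replicate pairs differed by 1.55, 1.33 and 1.36. The means were 5.31 ± 0.27 in *eif3k* and 3.90 ± 0.23 in WT (SD, n = 3), a log2 difference of 1.41 or 2.66-fold. The *DMR6* NP signals were 5.18, 4.67 and 4.69 in *eif3k*, against 4.16, 3.50 and 5.31 in WT, a difference of 0.52 over all samples and of 1.02 without WT replicate 3, which was the highest NP value. The TL difference of *DMR6* was accordingly 0.89 with all samples, and 0.27 without WT replicate 3.

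*CYP71B23* was the most regular of the 10 genes. Its log2 PL signals were 3.14, 3.14 and 3.20 in *eif3k* and 2.46 in each WT replicate, a difference of 0.70 or 1.62-fold. All other arrays were at 2.46 except WT NP replicate 1, at 2.36. A signal above background was therefore found on the 3 *eif3k* PL arrays and on none of the other 9. *LURP1* had PL signals of 3.61, 2.36 and 3.61 in *eif3k*, against 2.34, 2.33 and 2.35 in WT. Although the genotypes did not overlap, *eif3k* replicate 2 was above WT by only 0.01 to 0.03 and lay within 0.1 of the floor, so the difference of 0.85 rests on replicates 1 and 3. The same replicates, 1 and 3, had the higher *LURP1* signals in *eif3k* NP, at 2.51 and 2.72, against 2.35 in *eif3k* replicate 2 and in each WT replicate.

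*ICS1* codes for the isochorismate synthase that makes most of the salicylate in infected leaves, and *EDS5* for a transporter of the chloroplast envelope that exports it. Neither was measured above background in more than 1 sample. *ICS1* signals were between 2.51 and 2.57 in *eif3k* PL and between 2.50 and 2.52 in WT PL, and the one higher value was 2.96 in *eif3k* NP replicate 1. *EDS5* was at 2.33 to 2.35 on all arrays but WT PL replicate 3, where it was 4.89. That single array gave *EDS5* a PL difference of -0.85, which became 0.01 without it. A difference between genotypes in these upstream genes was not detectable at these signals.

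**Figure D2:**
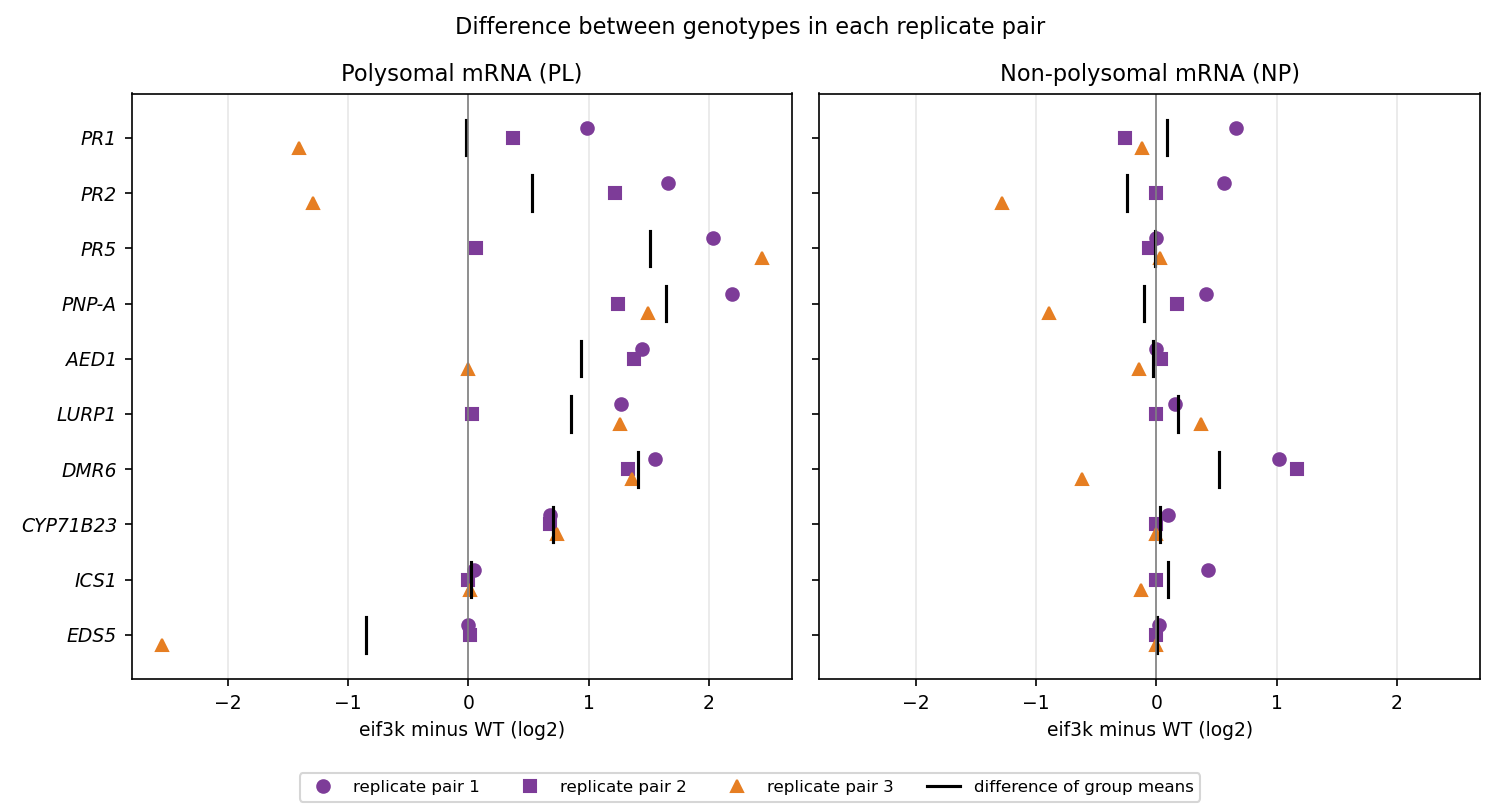
Difference between *eif3k* and WT (log2, horizontal axis) for each gene in polysomal mRNA (left panel) and non-polysomal mRNA (right panel), with 1 symbol for each replicate pair and a black line at the difference of the group means. In PL the 3 pairs of *DMR6* lie between 1.33 and 1.55 and those of *CYP71B23* between 0.68 and 0.74, whereas pair 3 of *PR1*, *PR2* and *EDS5* is far to the left, at -1.41, -1.29 and -2.55.

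Set side by side, the polysomal differences were larger than the non-polysomal ones. In PL, 7 of the 10 genes had a log2 difference of at least 0.5, where 11.1% of all probe sets did, and in NP 1 of 10 did (*DMR6*), against 4.97%. All *eif3k* PL values were above all WT values for 5 of 10 genes (*PR5*, *PNP-A*, *LURP1*, *DMR6* and *CYP71B23*), against 4.56% of all probe sets, and for no gene were they all below (1.57%). In NP the genotypes overlapped for each of the 10 genes, where 3.83% of probe sets had all *eif3k* values above WT and 2.47% had them below. Because the genes were chosen with the PL contrast in view, these shares describe the choice. The median difference over the 10 genes was 0.78 in PL and 0.02 in NP, and the median over all probe sets was 0.00 in both. Without WT replicate 3 the NP median was 0.16, with 9 of 10 genes above 0, and in replicates 1 and 2 it was 0.14. For *CYP71B23*, *AED1*, *ICS1* and *EDS5*, nearly all NP signals were at the lowest level of the gene in both genotypes.

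Leaving out WT replicate 3 made some polysomal differences larger and others smaller. The counts below come from the same contrast as the choice of genes. Without it, the median PL difference of the 10 genes was 0.90, 7 genes reached 0.5, where 2.54% of all probe sets did, and 5 genes had all *eif3k* values above WT, where 6.3% did. Among the 9814 probe sets with a mean log2 signal of at least 4, the median PL difference was 0.20 with WT replicate 3 and 0.01 without it. The 2 defence genes bright enough to be among these, *PR5* and *DMR6*, differed by 1.21 and 1.29 without it, against 1.51 and 1.41 with it. *PR1*, *PR2* and *EDS5*, whose highest WT PL signal was in WT replicate 3, moved up to 0.47, 0.96 and 0.01 without it. In replicates 1 and 2, which shared an array day, 8 of 10 genes had *eif3k* PL values above WT (11.3% of all probe sets), *PR1*, *PR2* and *AED1* among them. In that pair of replicates 2 of 10 genes were also above WT in NP, *PNP-A* and *DMR6* (9.25%), and the same genes were above WT in NP without WT replicate 3 (5.86%). With limma and Benjamini-Hochberg adjustment no probe set was called in PL, NP or TL (0.0% of 22746 in each, at an adjusted p under 0.05 and a log2 difference of at least 1), and 436, 721 and 612 had an unadjusted p under 0.05 in PL, NP and TL.

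The translation state relates the fractions to each other within a sample. TL of *PR5* was 3.08, 2.44 and 2.44 in *eif3k*, against 1.05, 2.32 and 0.03 in WT. TL of *PNP-A* was 2.11, 1.29 and 1.52 in *eif3k*, against 0.33, 0.22 and -0.86 in WT. Both genes had all *eif3k* values above all WT values, and so did *LURP1*, *AED1* and *CYP71B23*, which makes 5 of 10 genes where 4.16% of all probe sets did. TL of *LURP1* in *eif3k* replicate 2 was only 0.01, against -0.02 to 0.00 in WT. TL of *AED1* in *eif3k* replicate 3 was 0.14, from a PL signal at the WT level and an NP signal of 2.33. In WT, *LURP1*, *AED1* and *CYP71B23* were at background in both fractions, so their TL there is no measured translation state. Since TL holds the PL signals, its shares also describe the choice of genes. None of the 10 had all *eif3k* TL values below WT, where 2.44% of all probe sets did. A TL difference of at least 0.5 was found for 7 of 10 genes, against 10.7% of all probe sets. The TL differences were 1.74 for *PNP-A*, 1.52 for *PR5*, 0.97 for *AED1*, 0.68 for *LURP1* and 0.67 for *CYP71B23*. The median over the 10 genes was 0.72, and 0.67 without WT replicate 3. For *PR1*, the TL difference was -0.11 with all samples, and 0.38 without WT replicate 3, whose TL of 1.39 was the highest of the 6 samples.

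**Figure D3:**
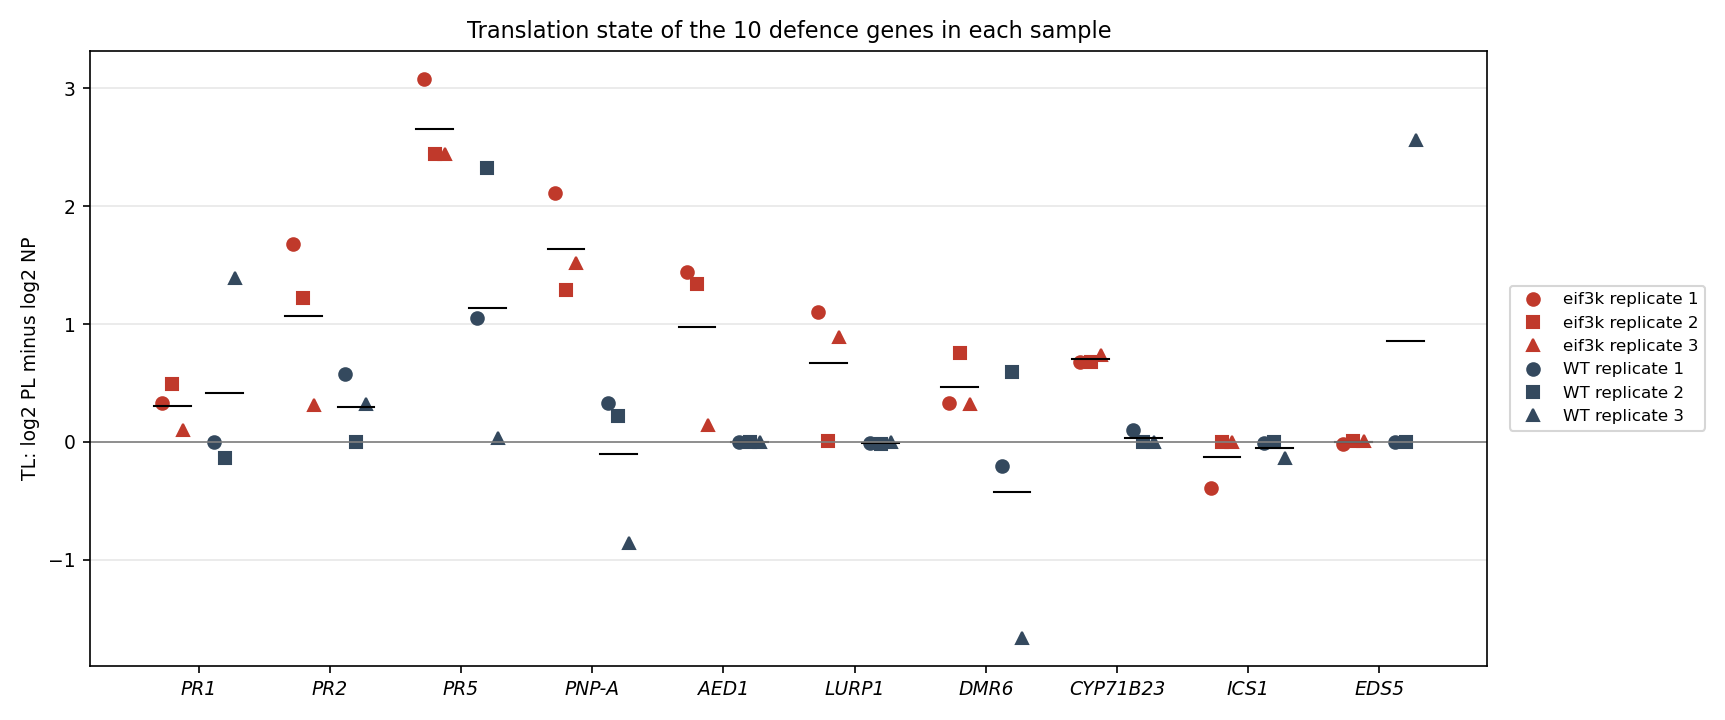
Translation state (log2 PL minus log2 NP, vertical axis) of each gene in the 3 *eif3k* samples (red) and the 3 WT samples (dark blue), with a line at each group mean. *PR5* lies between 2.44 and 3.08 in *eif3k*, against 0.03 to 2.32 in WT, and WT replicate 3 is the lowest sample for *DMR6* (-1.66) and *PNP-A* (-0.86) and the highest for *EDS5* (2.56).

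Within each genotype TL was also set against 0, the array average. The *eif3k* and WT PL signals that enter these values also entered the choice of several genes, so the values are a description and no p-value is given for a member. In *eif3k* the mean TL was 2.65 for *PR5*, 1.64 for *PNP-A* and 1.07 for *PR2*. It was above 0 for 8 genes, below 0 for *ICS1* and 0.00 for *EDS5*. Where a gene was at background in both fractions, as *EDS5* was in *eif3k*, a TL near 0 is no measured translation state. In WT, *PR5* had the highest mean TL, 1.13, and *DMR6* the lowest, -0.42. By limma, TL differed from 0 for 4.73% of all probe sets in *eif3k*, with 1 of the 10 genes among them (*PR5*), and for 4.84% in WT, with none of the 10. Nothing is read from these counts.

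Over the 12 arrays the signals of the genes fell into patterns that the sample values above share. Pearson's r was 0.912 between *PNP-A* and *CYP71B23*, 0.846 between *PR5* and *CYP71B23* and 0.815 between *PR5* and *PNP-A*, and in all of these the *eif3k* PL arrays were the high ones. *PR1* correlated with *EDS5* at 0.76 and with *PR2* at 0.73, and in these WT PL replicate 3 was among the high arrays. Between *PR1* and *DMR6* r was 0.013. *CYP71B23* was above background only on the *eif3k* PL arrays, and *EDS5* only on that of WT PL replicate 3. These values describe 12 arrays that share lysates, genotypes and normalization. Several of the genes were chosen for higher *eif3k* PL signals, so r between them may also reflect the choice.

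The remaining salicylate pathway was covered by 43 further genes, of which 40 had a probe set and 13 a mean log2 signal of at least 4. The same genes were compared in the same way. Of the 12 genes of synthesis and its control, the 7 of removal and conjugation, the 14 of perception and transcription and the 7 other salicylate-responsive genes, none was called in PL, NP or TL between genotypes, or in TL within a genotype. The median PL difference was 0.01, 0.00, 0.13 and 0.44 in these 4 lists, against 0.78 for the 10 genes. Of the 40, 2 had all *eif3k* PL values above WT, *PCC1* and *WAK1* (4.56% of all probe sets did), and 1 had them below, *GRXC9* (1.57%). Over the 40 genes both counts are near these shares, but *PCC1*, *WAK1* and *GRXC9* all belong to the 7 other salicylate-responsive genes. Of those 7, 3 had a PL difference of at least 0.5, where 11.1% of all probe sets did. *WAK1* differed by 1.56 in PL, and by 1.31 without WT replicate 3. *GRXC9* differed by -0.46, and by -0.15 without WT replicate 3.

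*PCC1*, a gene controlled by the circadian clock and induced by pathogens, had PL signals of 6.70, 6.64 and 8.43 in *eif3k*, against 5.60, 5.63 and 6.32 in WT, a difference of 1.41, and 1.64 without WT replicate 3. Its NP difference was 0.74 with overlapping groups, and 1.82 without WT replicate 3. *LLP1*, which codes for a lectin-like protein of systemic resistance, had PL signals of 7.80, 7.62 and 6.20 in *eif3k*, against 6.33, 7.04 and 6.42 in WT. Its groups overlapped in replicate 3, at a difference of 0.61. The differences of *TGA4*, a transcription factor that works with NPR1, and of *PAL1*, a phenylalanine ammonia-lyase, were 0.84 and 0.57 over all samples, and 0.07 and 0.11 without WT replicate 3.

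At the other end, the lowest PL differences among the 13 brighter genes were -0.42 for *MES9*, a methyl salicylate esterase, -0.30 for *NPR3*, a salicylate receptor, 0.02 for *UGT74F2*, a salicylate glucosyltransferase, and 0.10 for *TGA5*. All 4 overlapped between genotypes in PL. Without WT replicate 3 the differences were -0.13 for *MES9*, -0.19 for *NPR3*, -0.62 for *UGT74F2* and -0.16 for *TGA5*. *NPR3* had TL values of -0.55, -0.65 and -0.70 in *eif3k*, against -0.20, -0.41 and -0.27 in WT, all lower in the mutant. The receptor gene *NPR1* had a PL difference of 0.20, and *WRKY70*, a transcription factor downstream of NPR1, one of 0.21. As with *ICS1* and *EDS5*, several genes of synthesis and its control were at the floor, among them *PBS3*, *SARD1* and *ALD1* with a mean log2 signal of 2.33.

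**Figure D4:**
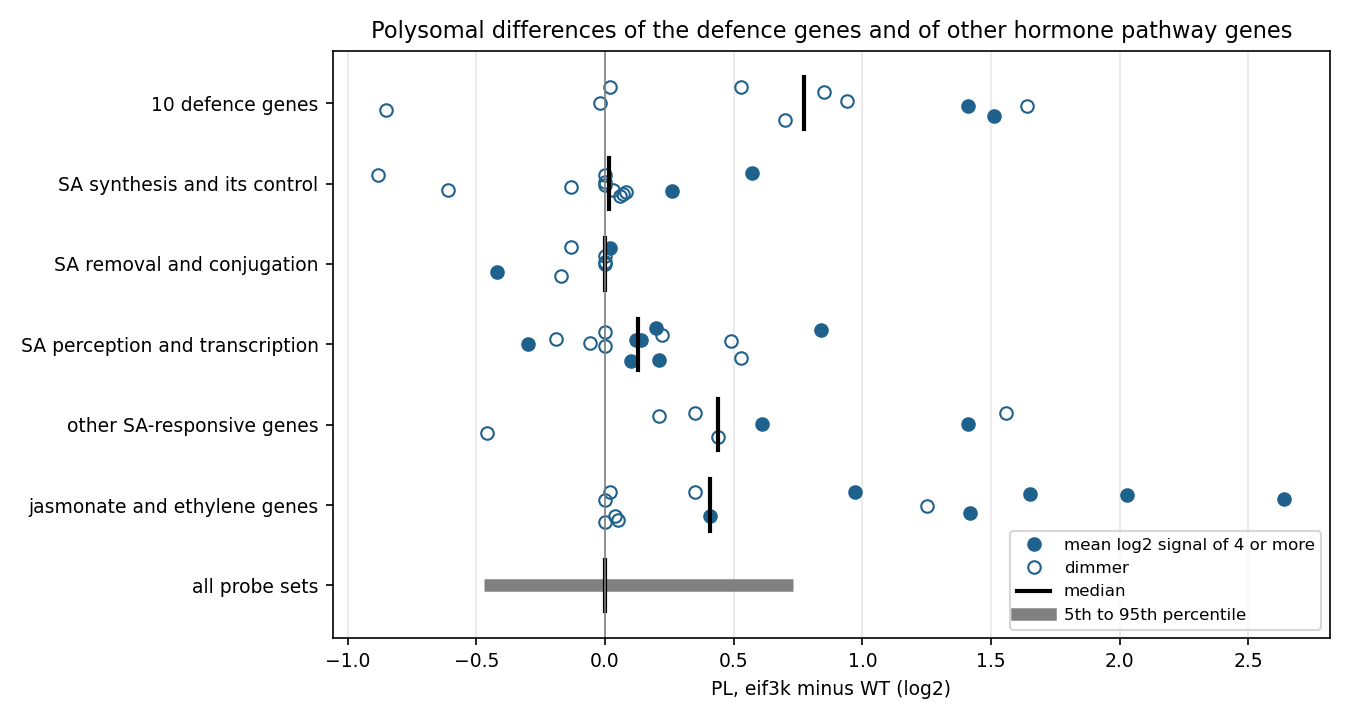
Polysomal difference between *eif3k* and WT (log2, horizontal axis) of the 10 defence genes, of 4 lists of other salicylate (SA) genes and of jasmonate and ethylene genes, with 1 circle for each probe set, filled where its mean log2 signal was 4 or more, and a black line at each median. The grey bar spans the 5th to 95th percentile of all 22746 probe sets (-0.47 to 0.73), and the medians are 0.78 for the defence genes and 0.44 or less for the other lists.

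Close relatives and neighbours of the genes were examined in the same arrays. Of 7 paralogues, *BG1*, *BG3* (glucanases related to *PR2*), *PNP-B*, *DLO2* (related to *DMR6*) and a *PR1*-like gene were at or near the floor in both genotypes. *PRB1*, a basic relative of *PR1*, had PL signals of 4.79, 4.75 and 3.59 in *eif3k*, against 3.44, 3.86 and 2.92 in WT, and NP signals of 2.36, 2.90 and 2.39 in *eif3k*, against 2.33, 2.94 and 2.92 in WT. Its groups overlapped in PL, at a difference of 0.97, and in NP. Its TL values were 1.83 ± 0.62 in *eif3k* and 0.68 ± 0.59 in WT (SD, n = 3) and did not overlap. *EDS5H*, the paralogue of *EDS5*, had PL signals of 6.93 to 7.29 in *eif3k*, against 6.05 to 6.87 in WT.

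In the TAIR10.1 gene table, *LURP1* and *PR1* are separated by 1 protein-coding gene, which is *PRB1*. The PL differences over all samples were 0.85 for *LURP1*, 0.97 for *PRB1* and -0.02 for *PR1*, and *PRB1* and *PR1* overlapped between genotypes. Counting 2 protein-coding genes on each side of every member gave 37 neighbours, 33 with a probe set. Their median PL difference was 0.00, and 1 of 33 had all *eif3k* PL values above WT (AT4G39050, beside *EDS5*), at a background of 4.56%. *CYP71B23* lies in an array of related genes. Its neighbours *CYP71B21*, *CYP71B22*, *CYP71B3* and *CYP71B24* had PL differences of -0.13, -0.13, -0.25 and -0.59, against 0.70 for *CYP71B23*. All of these neighbours overlapped between genotypes in PL. Their mean log2 signals were low, at 2.36, 2.46, 3.03 and 3.50, where the floor was 2.33.

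Among probe sets with a mean log2 signal of at least 4, those whose signals over the 12 arrays were most like the mean of the 10 genes belonged to *EXLA1*, an expansin-like gene (r = 0.927), AT5G19875 (r = 0.896), *ARPN*, a plantacyanin (r = 0.851), *AZI1*, a lipid-transfer-like gene of systemic resistance (r = 0.841), and *HIPP20*, a metal-binding protein gene (r = 0.837). Of these 5, *EXLA1*, AT5G19875 and *HIPP20* overlapped between genotypes in PL, with differences of 0.59, 0.44 and 0.45. *AZI1* had PL signals of 8.69, 8.45 and 8.85 in *eif3k*, against 7.06, 7.78 and 6.60 in WT. *ARPN* had 7.50, 7.14 and 7.80 in *eif3k*, against 6.53, 6.71 and 6.38 in WT. *AZI1* and *ARPN* were separated between genotypes in PL and overlapped in NP, where WT replicate 3 was the highest sample, as it was for *PNP-A*, *PR2* and *DMR6*. The 5 were picked for likeness to a mean that was highest on the *eif3k* PL arrays, so nothing is read from a separation in PL.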

How the data were processed

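For each of 12 ATH1 arrays the authors deposited log2 signals, after background correction and normalization over the arrays. The processing notes name GCRMA, the study's methods RMA. The sources used here give neither a version nor probe set definitions nor a genome build. The authors also deposited TL as log2 ratios, which equalled log2 PL minus log2 NP within 0.01, so TL was computed by subtraction. The series value table held the same signals. Of 22810 probe sets, 64 controls were left out. The labels state 16 h of light a day, the methods continuous light.

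Two-sided tests were run in limma 3.58.1 under R 4.3.3 (lmFit, then eBayes). The p-values were adjusted by Benjamini-Hochberg over 22746 probe sets, and calls needed an adjusted p under 0.05 and a log2 difference of at least 1. Both genotype means of TL were fitted together and set against 0 to count calls. The p-values reflect how far these samples differ, and part of that spread may be technical. Array data carry no read depth, and 3 replicates limit the precision. The fits were tested on simulated data.

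The 10 genes and all lists were chosen with earlier results of these data known. Named genes were the 10 genes, the 4 highest and 4 lowest PL differences among pathway genes with a mean log2 signal of at least 4, the 5 probe sets most like the members' mean over the arrays, and eIF3k. Paralogues, neighbours, jasmonate genes, markers, *WAK1*, *NPR1*, *WRKY70* and the floor-level genes were named beyond that rule, after their values were seen. Gene names follow the annotation in the deposited file, and all 10 members were found in the TAIR10.1 table. Neither sequences nor coordinates are given.

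Deviations from the group means correlated between *eif3k* and WT samples of the same number (r between 0.134 and 0.268 across probe sets in PL, NP and TL), and the numbers were treated as pairs in a fit with a replicate block. A shared array day of the replicate 3 arrays would give such values too. Alternatives were a filter on dim probe sets, quantile normalization, an intensity trend, array batch or replicate number as a block, probe sets of several transcripts left out, and replicates left out.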

Additional observations from a re-analysis of the deposited data

How the results depend on the processing

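The TL of *PR5* in *eif3k* was between 2.44 and 2.76 with replicates left out. The number of the 10 genes called in *eif3k* was 1, but 0 with an intensity trend, 2 with array batch as a block (*PNP-A* joined), and between 0 and 2 with replicates left out. Without replicate 3, and without *eif3k* replicate 3, the gene called was *AED1* and not *PR5*. Both settings leave out the *eif3k* sample in which polysomal *AED1* was at the WT level, and nothing is read from these calls either. Probe sets called in TL against 0 were 1076 in *eif3k* and 1100 in WT, and 2174 in *eif3k* and 2033 in WT after dim probe sets were left out (fewer were tested). With replicates left out they numbered 0 to 1878 in *eif3k* and 0 to 1550 in WT, 0 without replicate 1 or without replicate 2, and the highest without WT replicate 3. In PL, 0 to 1 probe sets were called with replicates left out. The 1 was *LURP1* without *eif3k* replicate 2 (1.27), *AED1* without *eif3k* replicate 3 (1.41) and AT4G02290 without *eif3k* replicate 1 (1.17). For *LURP1* and *AED1* the sample left out was the *eif3k* one nearest the WT level, at 2.36 and 2.47. Several of the 10 genes were chosen with this contrast in view, so nothing is read from these calls. In NP, 1 probe set (AT3G30720) was called after dim ones were left out. The replicate block gave 0 calls in PL, NP and TL, as did the fit without it, and changed no call. Genes with all *eif3k* values above WT numbered 5 to 8 in PL, 0 to 2 in NP and 5 to 7 in TL with replicates left out, counts that were added after the data were seen. The share of all probe sets that did so also varied, and was 11.3% in PL, 9.25% in NP and 11.7% in TL without replicate 3. The median PL difference of the 10 genes stayed between 0.67 and 0.90, and the median TL in WT between 0.00 and 0.03. In WT, the mean TL of 3 genes that were not called changed sign without WT replicate 3, and likewise without replicate 3, to 0.20 for *DMR6*, 0.28 for *PNP-A* and -0.07 for *PR1*. Over all replicates left out it ranged from -0.93 to 0.20 for *DMR6*, from -0.32 to 0.28 for *PNP-A* and from -0.07 to 0.69 for *PR1*, and the cause was not tested. Signals near the floor limit *ICS1*, *LURP1*, *AED1* and *CYP71B23* to bounds in WT, and *EDS5* on all WT arrays but 1.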

Other observations

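Genes of jasmonate and ethylene signalling, hormones of defence against wounding and necrotrophic pathogens, were measured on the same arrays. Of 13 such genes, 6 had all *eif3k* PL values above WT, where 4.56% of all probe sets did, and 4 had all *eif3k* NP values above WT, where 3.83% did. In PL, *JAZ1*, *JAZ10*, *MYC2*, *ORA59* and *ERF1* differed by 0.05 or less, and in NP 5 of the 13 were below 0. *PDF1.2a*, a defensin gene, had PL signals of 5.50, 5.28 and 6.68 in *eif3k*, against 4.52, 4.67 and 3.33 in WT, and NP signals of 4.63, 4.10 and 5.72 in *eif3k*, against 2.55, 3.20 and 2.55 in WT. Its NP difference of 2.05 was larger than its PL difference of 1.65, so that its TL difference was -0.40. Without WT replicate 3 these differences were 1.94, 1.23 and -0.72. WT NP replicates 1 and 3 were at 2.55, its lowest signal on any array, so its NP and TL differences may be bounds set by background.

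*LOX2*, the lipoxygenase of jasmonate synthesis, had PL signals of 8.05, 8.16 and 10.37 in *eif3k*, against 7.38, 7.36 and 5.74 in WT, with differences of 2.03 in PL and 1.08 in NP. *OPR3*, a reductase of the same pathway, differed by 0.97 in PL and 1.17 in NP. *VSP1*, a vegetative storage protein gene induced by jasmonate whose probe set may detect more than 1 transcript, had the highest PL difference of the list, 2.64, with an NP difference of 1.09. Without WT replicate 3 the PL differences were 1.49 for *LOX2*, 0.67 for *OPR3* and 2.03 for *VSP1*. The NP differences were then 1.25, 0.87 and 0.92. *PR3* and *AOS* differed by 1.25 and 0.41 in PL, and by -0.03 and -0.04 in NP. The 13 jasmonate and ethylene genes had a median NP difference of 0.09, and 0.11 without WT replicate 3. Over all samples, 6 of the 13 had an NP difference of 0.1 or less in either direction. The 10 salicylate-responsive genes had a median NP difference of 0.02, and 0.16 without WT replicate 3, and many of their NP signals were at the lowest level of the gene. A difference between the hormone groups was not tested, and no gene of either group was called between the genotypes in PL or NP.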
